A study of Mus musculus with 9 samples.

Results

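Vimentin, 4 annexins and 4 S100 proteins were followed as a set of 9 genes in microglia, the macrophages that live in the brain: Vim, Anxa2, Anxa3, Anxa4, Anxa5, S100a4, S100a6, S100a10 and S100a11. They were taken as the listed genes, out of 19938 genes with a probe set annotated to 1 gene symbol, and each was read from its highest-mean probe set. All 9 had such a probe set and all 9 passed the filter on low values, a mean over all arrays no lower than the median probe set mean (5.31 on the log2 scale), which left 10795 genes for testing. Vim was put in the set because it rose in mice with the common variant of human TREM2, so its values in comparisons with that group are a description and carry no test here.

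The study hybridised RNA from CD45+ CD11b+ cells, sorted from the brains of 9 mice aged 8.5 months, to 1 array per mouse. Every mouse carried 5XFAD, a set of transgenes that models the amyloid deposition of Alzheimer's disease, and every mouse was without mouse TREM2, a receptor through which microglia sense lipids. The group called CV expressed the common variant of human TREM2, the group called R47H expressed the R47H variant, a coding variant tied to higher risk of that disease, and the group called KO expressed no human TREM2. Each group held 3 mice, of which mouse 1 was the female and mice 2 and 3 were males. The labels and sources used here do not give the promoter that drives human TREM2, and mice with intact mouse TREM2 are not among the groups. The comparisons ask what either form of human TREM2 changes in these cells, and how R47H stands against the common variant.

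Vimentin is an intermediate filament protein of motile and mesenchymal cells, and it is abundant in activated macrophages, astrocytes and endothelium. Annexins bind acidic membrane phospholipids when calcium rises, and act in membrane repair, vesicle traffic and the recognition of dying cells. S100 proteins are small calcium-binding dimers. S100a10 pairs with annexin A2 in a complex that binds plasminogen at the cell surface, S100a11 pairs with annexin A1, S100a6 binds several annexins and S100a4 binds non-muscle myosin. Neutrophils and monocytes also carry S100 proteins and annexins in large amounts.

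Microglial markers were present in all arrays, beside markers of other cells. All 11 microglial markers with a probe set, among them Csf1r, Cx3cr1, P2ry12 and Tmem119, passed the filter, with 0 of them under it in any mouse. So did all 10 markers of border-associated macrophages, all 9 of oligodendrocytes and 10 of 14 of neutrophils, so the arrays do not show that the sorted cells were microglia alone. Array medians lay between 5.28 and 5.35, and correlations between arrays between 0.981 and 0.990. Markers of neutrophils set KO mouse 3 apart within its group. The neutrophil score, the mean deviation of 10 tested markers from their means over all arrays, was 1.79 in KO mouse 3, -2.09 in KO mouse 1 and -1.68 in KO mouse 2. It ran from -1.45 to -0.17 in R47H and from 0.87 to 1.87 in CV. CV minus KO of the S100 genes is therefore given with and without KO mouse 3, while correlations over mice are given with it alone.

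Vim was the member with the clearest order of genotypes, KO below R47H below CV (probe set 10469322). Its log2 signal was 8.45, 7.93 and 8.37 in KO mice 1, 2 and 3, 9.06, 9.21 and 8.86 in R47H mice, and 10.31, 9.99 and 10.05 in CV mice. No mouse of one genotype overlapped with a mouse of another. The means were 8.25 ± 0.28 in KO, 9.04 ± 0.18 in R47H and 10.12 ± 0.17 in CV (SD, n = 3). CV minus KO was 1.87 ± 0.13 (SE of the model), a 3.64-fold difference, and R47H minus CV was -1.07 ± 0.13. Both are descriptions, because Vim was chosen for its level in CV. KO mouse 3, with its high neutrophil score, was not high in Vim.

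**Figure D1:**
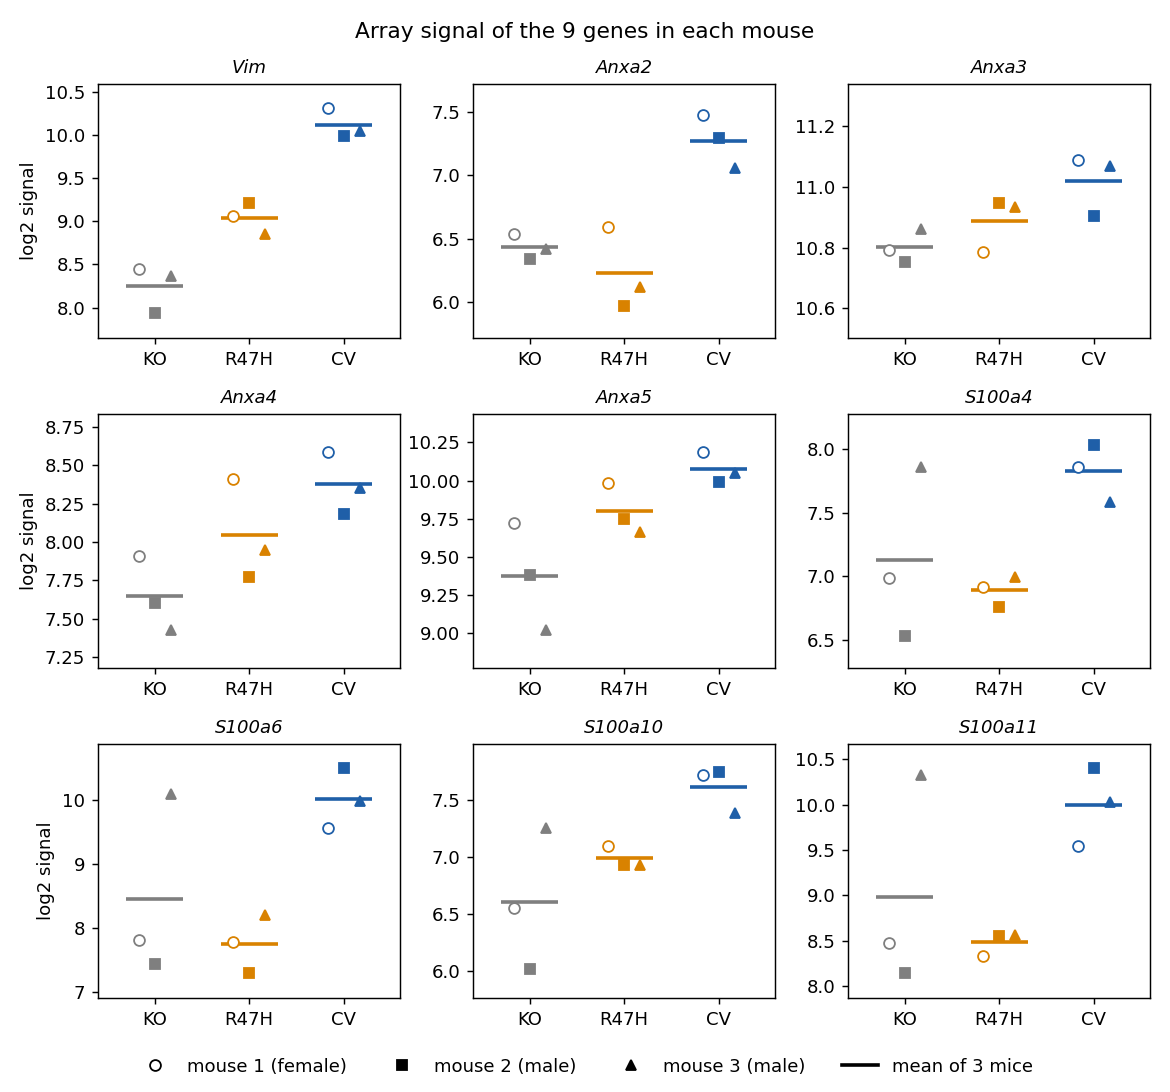
Log2 array signal (y axis) of the 9 genes in each of the 3 genotypes (x axis), with 1 point per mouse, open for the female, and a bar at the mean of 3 mice. Vim separates all 3 genotypes, with KO mice at 7.93 to 8.45 and CV mice at 9.99 to 10.31, while in S100a6 KO mouse 3 lies at 10.09 beside the CV mice.

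R47H minus KO for Vim, a comparison that did not enter its choice apart from the shared KO arrays, was 0.79 ± 0.13 (95% interval 0.49 to 1.10, limma adjusted p = 0.0926). It did not pass the threshold of adjusted p under 0.05, although the R47H mice all lay above the KO mice. Most tested markers of astrocytes, which also make vimentin, and of oligodendrocytes lay higher in R47H than in KO or CV. The sort was for CD45+ CD11b+ cells, and how far it removed both cell types was not tested. The astrocyte score over 4 tested markers was 0.47 to 0.70 in R47H, -0.43 to 0.11 in KO and -0.52 to -0.30 in CV. In R47H minus KO 3 of these 4 markers were positive with a median of 0.72 and 0 called, and Slc1a3 stood at -0.11. In R47H minus CV all 4 were positive with a median of 0.87, and 1, S100b, was called. In R47H 4 to 5 of the 10 measured astrocyte markers lay under the filter value, and 6 to 7 in KO. The summed linear signal of the 10 markers was 813 to 953 in R47H and 528 to 693 in KO. The oligodendrocyte score over 9 tested markers was 0.49 to 0.81 in R47H, -0.59 to 0.12 in KO and -0.62 to -0.25 in CV. In R47H minus KO 8 of these 9 markers were positive with a median of 0.93 and 1 was called, and in R47H minus CV all 9 were positive with a median of 1.14 and 5 were called. The first was Ermn and the 5 were Ermn, Mag, Mbp, Mobp and Cldn11, of which Ermn, Mobp and Cldn11 are named after their values were seen. Ermn passed the filter value of 5.31 through R47H alone (means 5.05 in KO, 5.00 in CV and 6.67 in R47H), so its calls are a description. Slc1a2 of the astrocyte score did likewise (5.25, 5.13 and 5.71). Over all tested genes 0.0834% were called in R47H minus KO and 0.797% in R47H minus CV. Without R47H mouse 1 the 5 calls fell to 0. The part of either cell type in the R47H values of the members was not tested beyond the astrocyte covariate. With the astrocyte score as a covariate, a setting added after the data were seen, the difference of Vim was 1.12 ± 0.29 (limma adjusted p = 0.861, against adjusted p from 0.0684 to 0.861 over 14 settings). In such sorted bulk samples, fewer cells of a type and less RNA per cell cannot be told apart.

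To place the members beside their genes' start sites, the 250 bases before the RefSeq start (build GRCm38.p6) were searched for 6 short motifs on both strands. These were AP-1 (TGANTCA), the E-box of MiT/TFE factors (CACGTG), the GC box (GGGCGG), the TATA box (TATAAA), NF-kB (GGGA and CCC with 3 free bases between them) and PU.1 (GAGGAAGT). Of the 9 genes 7 had a promoter sequence, with 8 windows in all since Anxa4 has 2 starts. The 4 windows with a match are shown 5′ to 3′ to set apart the start regions of members that differ below in their pattern over mice, with every match in capitals.
Vim, chr2:13574061-13574310, forward strand: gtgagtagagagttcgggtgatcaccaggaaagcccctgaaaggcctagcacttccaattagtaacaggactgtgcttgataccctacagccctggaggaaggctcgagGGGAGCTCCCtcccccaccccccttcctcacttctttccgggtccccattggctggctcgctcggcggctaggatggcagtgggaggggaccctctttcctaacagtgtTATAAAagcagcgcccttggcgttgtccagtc
Anxa2, chr9:69453433-69453682, forward strand: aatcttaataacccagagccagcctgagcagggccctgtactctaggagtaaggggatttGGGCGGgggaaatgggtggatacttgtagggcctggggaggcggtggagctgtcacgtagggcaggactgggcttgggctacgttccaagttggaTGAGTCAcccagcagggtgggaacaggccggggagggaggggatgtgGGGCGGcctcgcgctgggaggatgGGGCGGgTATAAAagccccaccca
S100a4, chr3:90603520-90603769, forward strand: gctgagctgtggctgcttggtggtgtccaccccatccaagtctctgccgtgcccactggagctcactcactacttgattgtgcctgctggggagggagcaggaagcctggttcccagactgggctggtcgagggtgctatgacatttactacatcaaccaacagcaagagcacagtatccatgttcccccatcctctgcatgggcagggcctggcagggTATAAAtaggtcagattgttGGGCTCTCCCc
S100a11, chr3:93520246-93520495, forward strand: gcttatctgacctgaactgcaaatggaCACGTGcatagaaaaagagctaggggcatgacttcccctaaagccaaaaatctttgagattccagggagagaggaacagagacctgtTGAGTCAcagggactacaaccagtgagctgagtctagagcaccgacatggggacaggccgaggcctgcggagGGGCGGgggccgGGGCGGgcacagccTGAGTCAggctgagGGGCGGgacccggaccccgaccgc
Vim and S100a4 each held a TATA box, at positions -32 and -31 from the start, and 1 NF-kB site, which in Vim matched on both strands. Anxa2 and S100a11 shared the AP-1 motif (1 match in Anxa2 and 2 in S100a11) and 3 GC boxes each, and Anxa2 also held a TATA box. S100a11 alone among the 8 windows held the E-box. The windows of Anxa4, Anxa5 and S100a6 held none of the 6 motifs. Among 32851 promoters of the same length, 6.75% held AP-1, 32.7% a GC box, 12.4% a TATA box, 4.77% NF-kB, 6.02% the E-box and 2.44% PU.1. A match is a description of letters and not of binding.

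Among the annexins, Anxa2, Anxa4 and Anxa5 rose with the common variant and Anxa3 moved little. Anxa2, which carries the S100a10 dimer to the membrane (probe set 10586744), read 6.54, 6.34 and 6.42 in KO mice 1 to 3, 6.60, 5.97 and 6.12 in R47H mice, and 7.47, 7.29 and 7.05 in CV mice. Every CV mouse lay above every other mouse, and KO and R47H overlapped. The CV mean exceeded KO by 0.84 ± 0.10, 1.79-fold (limma adjusted p = 0.0065). R47H minus CV was -1.04 ± 0.10 (limma adjusted p = 0.00479), which made Anxa2 the member called in that comparison; it was not called with the neutrophil (-0.93, adjusted p = 0.15), monocyte (-0.84, 0.407) or astrocyte score (-0.71, 0.999) as a covariate, against adjusted p from 0.0033 to 0.999 over 13 settings. R47H minus KO was -0.20 ± 0.10 (95% interval -0.44 to 0.03, limma adjusted p = 0.907). Anxa2 thus had its R47H mean below KO, whereas Vim had its R47H mean between the other groups.

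Anxa4, a membrane-binding annexin (probe set 10545958), read 7.91, 7.60 and 7.43 in KO mice 1 to 3. It read 8.41, 7.77 and 7.95 in R47H mice and 8.59, 8.18 and 8.36 in CV mice. CV mice all lay above KO mice, and R47H overlapped with both. Between CV and KO the difference was 0.73 ± 0.09, 1.66-fold (limma adjusted p = 0.00693). R47H minus KO was 0.40 ± 0.09 (limma adjusted p = 0.282) and R47H minus CV -0.33 ± 0.09 (limma adjusted p = 0.197), neither past the threshold.

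Anxa5, which binds phosphatidylserine on dying cells (probe set 10497817), showed the same order. It read 9.72, 9.38 and 9.02 in KO mice 1 to 3, 9.98, 9.75 and 9.67 in R47H mice and 10.19, 9.99 and 10.05 in CV mice. KO mouse 3 had the lowest signal of all 9 mice, and the CV mice lay above all others. Anxa5 was 0.70 ± 0.11 higher in CV than in KO, 1.63-fold (limma adjusted p = 0.0186). R47H minus KO was 0.42 ± 0.11 (limma adjusted p = 0.429) and R47H minus CV -0.28 ± 0.11 (limma adjusted p = 0.354). Leaving out CV mouse 1, 2 or 3 ended the call in CV minus KO, with differences of 0.78, 0.69 and 0.66 (limma adjusted p = 0.0567, 0.0908 and 0.11, against adjusted p from 0.0165 to 0.11 over the 9 removals).

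Anxa3, an annexin of neutrophils and myeloid cells (probe set 10523451), had the smallest differences of the set. It lay between 10.75 and 10.86 in KO, 10.78 and 10.95 in R47H, and 10.90 and 11.09 in CV. CV mice lay above KO mice, but the difference was 0.22 ± 0.08 (95% interval 0.03 to 0.40, limma adjusted p = 0.292). R47H minus KO was 0.09 ± 0.08 (adjusted p = 0.954) and R47H minus CV -0.13 ± 0.08 (adjusted p = 0.567).

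The 4 S100 genes differed by 0.70 to 1.56 in CV minus KO, with wider errors than the annexins, and 0 of the 4 passed the test in any comparison (limma; all but S100a11 had an unadjusted p under 0.05 in CV minus KO, and all 4 in R47H minus CV). S100a6 (probe set 10493820), also known as calcyclin, read 7.82, 7.44 and 10.09 in KO mice 1 to 3, 7.78, 7.30 and 8.20 in R47H mice and 9.56, 10.49 and 9.98 in CV mice. KO mouse 3 lay within the CV range, and the other KO mice lay in the range of R47H. CV minus KO was 1.56 ± 0.58 (limma adjusted p = 0.294), R47H minus KO -0.69 ± 0.58 (adjusted p = 0.95) and R47H minus CV -2.25 ± 0.58 (adjusted p = 0.167). CV and R47H mice did not overlap.

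S100a11 (probe set 10493990) followed the same mice. It read 8.47, 8.14 and 10.33 in KO mice 1 to 3, 8.33, 8.55 and 8.57 in R47H mice and 9.55, 10.40 and 10.02 in CV mice. CV minus KO was 1.01 ± 0.45 (limma adjusted p = 0.38) and R47H minus CV -1.51 ± 0.45 (limma adjusted p = 0.226). A second probe set annotated to S100a11 alone (10457640) gave 1.07 for CV minus KO and -0.32 for R47H minus KO, with KO mouse 3 at 9.95 against 7.95 and 7.78 in the other KO mice. The probe set with the higher mean gave -0.49 ± 0.45 for R47H minus KO (adjusted p = 0.95).

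S100a4, the partner of non-muscle myosin (probe set 10493812), read 6.98, 6.53 and 7.86 in KO mice 1 to 3, 6.92, 6.76 and 6.99 in R47H mice and 7.86, 8.03 and 7.59 in CV mice. Again KO mouse 3 was the one KO mouse within the CV range. CV minus KO was 0.70 ± 0.29 (limma adjusted p = 0.341), R47H minus KO -0.24 ± 0.29 (adjusted p = 0.964) and R47H minus CV -0.94 ± 0.29 (adjusted p = 0.241).

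S100a10 (probe set 10493995), the partner of annexin A2, lay between these patterns. It read 6.56, 6.02 and 7.25 in KO mice 1 to 3, 7.10, 6.94 and 6.94 in R47H mice and 7.72, 7.75 and 7.39 in CV mice. KO mouse 3 was the highest KO mouse but lay under all CV mice. CV minus KO was 1.01 ± 0.26 (limma adjusted p = 0.13), R47H minus KO 0.38 ± 0.26 (adjusted p = 0.941) and R47H minus CV -0.63 ± 0.26 (adjusted p = 0.379). The complex partners therefore differed in R47H, where the mean of S100a10 lay above KO and that of Anxa2 below it, but neither difference from KO passed the test and the contrast between the genes was not tested.

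**Figure D2:**
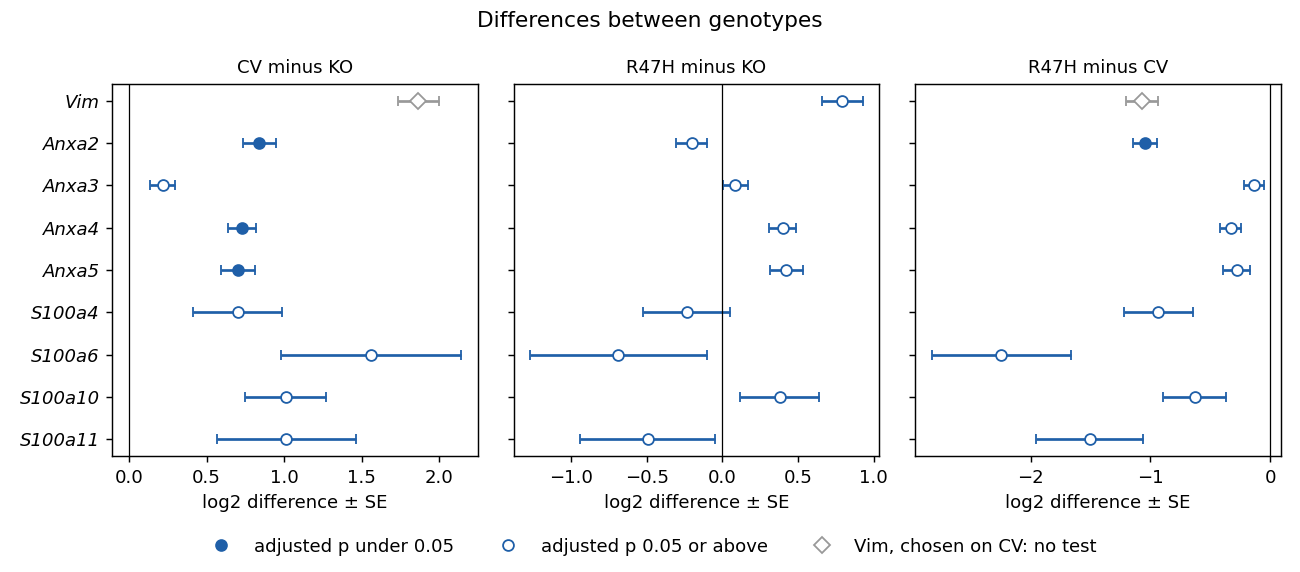
Log2 difference with SE (x axis) of each gene (y axis) in CV minus KO, R47H minus KO and R47H minus CV, from the model over all 9 mice; filled points have a limma adjusted p under 0.05 and grey diamonds mark Vim where it was chosen on CV. Anxa2, Anxa4 and Anxa5 are filled in CV minus KO and Anxa2 in R47H minus CV, and the S100 genes have the widest errors.

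Over the set, 3 of the 8 members other than Vim were called higher in CV minus KO, where 1.21% of all 10795 tested genes were called (0.954% higher). All 8 differences were positive (45% of tested genes), with a median of 0.78 against -0.02 for all tested genes, and groups did not overlap for 5 of the 8 with CV higher (14% of tested genes in either direction, 5.9% with CV higher). At an unadjusted p under 0.05 there were 7 of 8 (13.2% of tested genes). Vim entered on this contrast and the set was chosen with results known, so these counts are a description. In R47H minus KO 0 of 9 members were called by limma, where 0.0834% of tested genes were. At an unadjusted p under 0.05 there were 3 of 9 (Vim, Anxa4 and Anxa5), against 5.68% of tested genes, and Vim was the member without overlap between groups (7.11% of tested genes, 3.84% with R47H higher). Of the 9 differences 5 were positive (49.6% of tested genes). In R47H minus CV 1 of 8, Anxa2, was called lower (0.797% of tested genes called, 0.417% lower), all 8 differences were negative (53.4% of tested genes were positive) with a median of -0.78 against 0.01 for all tested genes, and groups did not overlap for 6 of the 8 with R47H lower (14.9% of tested genes in either direction, 6.17% with R47H lower). At an unadjusted p under 0.05 there were 7 of 8 (12.4% of tested genes). CV minus KO and R47H minus CV share the CV arrays, and R47H minus KO shares arrays with both.

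Neutrophil and monocyte scores varied over the mice in a way close to the S100 genes. Of the 10 tested neutrophil markers all were positive in CV minus KO, with a median of 2.29 and 0 called. The calprotectin subunits S100a8 and S100a9, abundant proteins of neutrophils, stood at 2.63 ± 0.80 (limma adjusted p = 0.208) and 2.55 ± 0.81 (limma adjusted p = 0.225). The summed linear signal of the 14 measured markers was 931 to 18929 in KO, 1703 to 5821 in R47H and 11823 to 19422 in CV. The number of markers under the filter value was 1 to 8 of 14 in KO, 4 to 7 in R47H and 2 in CV. Across the 9 mice the Pearson correlation with the neutrophil score was 0.940 for S100a6, 0.955 for S100a11, 0.897 for S100a4 and 0.805 for S100a10. It was 0.596 for Vim, 0.548 for Anxa2, 0.640 for Anxa3, 0.171 for Anxa4 and 0.0803 for Anxa5. After the genotype means were removed it was 0.925 for S100a6 and 0.0159 for Vim, and it was -0.918 for Anxa5. KO mouse 3 weighs heavily on such values, as the SD of S100a6 was 1.43 in KO against 0.45 in R47H and 0.47 in CV. With the monocyte score, over 7 tested markers, the correlation was 0.970 for S100a6, 0.971 for S100a11, 0.919 for S100a4 and 0.769 for S100a10, higher than with the neutrophil score for the first 3 of these. These correlations describe 9 arrays of 3 genotypes and carry no test, and the part of neutrophil and monocyte RNA in the S100 differences was not tested.

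**Figure D3:**
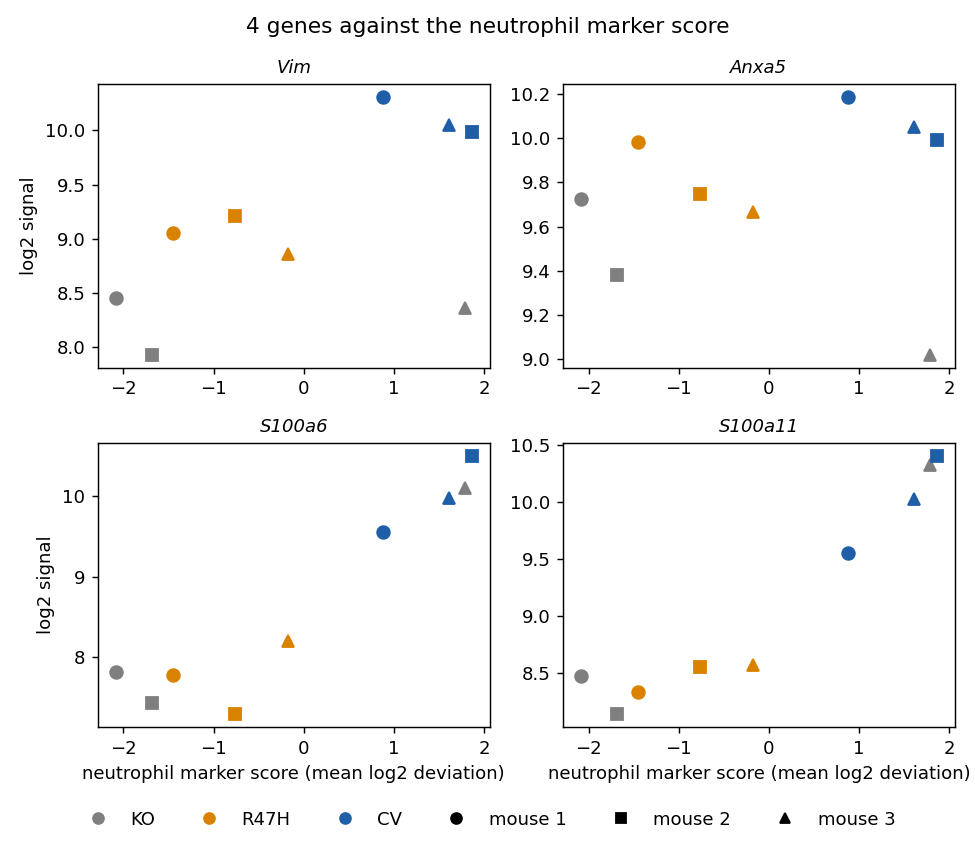
Log2 signal (y axis) of Vim, Anxa5, S100a6 and S100a11 against the neutrophil marker score (x axis, mean log2 deviation of 10 markers), with 1 point per mouse, coloured by genotype and shaped by mouse number. KO mouse 3, at a score of 1.79, lies beside the CV mice for S100a6 and S100a11 and under them for Vim and Anxa5.

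Without KO mouse 3, CV minus KO was 1.09 ± 0.16 for S100a4, 2.36 ± 0.32 for S100a6, 1.38 ± 0.13 for S100a10 and 1.65 ± 0.21 for S100a11. Each was then called (limma adjusted p = 0.0193, 0.0143, 0.00336 and 0.0108, the lowest of the 9 removals for each gene, whose highest were 0.634, 0.579, 0.365 and 0.678). Neutrophil markers were then called too, 9 of 10 against 0 of 10 with all mice, and so were 3 of 7 other S100 genes and 2 of 7 monocyte markers. S100a8 and S100a9 are in both the neutrophil list and the list of other S100 genes, so these counts overlap. The count of called members other than Vim rose from 3 to 7 of 8, while calls over all 10795 tested genes rose from 131 to 172. In R47H minus CV the count of called members rose from 1 to 4, by S100a4, S100a6 and S100a11 (limma adjusted p = 0.0253, 0.0123 and 0.0105). There 10 of 10 neutrophil markers were called, and calls over all tested genes rose from 86 to 132. The neutrophil score differs between genotypes, so as a covariate it also takes up genotype differences. With the neutrophil score as a covariate, CV minus KO was -0.09 ± 0.14 for S100a4, -0.04 ± 0.28 for S100a6, -0.21 ± 0.22 for S100a11 and 0.30 ± 0.14 for S100a10. Under the same covariate it was 1.69 ± 0.18 for Vim, again a description. The annexins Anxa2, Anxa4 and Anxa5 stood at 0.74 ± 0.14, 0.81 ± 0.13 and 0.96 ± 0.10. Of these, Anxa5 was called (limma adjusted p = 0.0130), and Anxa2 (0.13) and Anxa4 (0.0785) were not, against ranges over 13 settings of Anxa2 from 0.00524 to 0.171 and over 14 settings of Anxa4 from 0.00476 to 0.151 and of Anxa5 from 0.0129 to 0.12. The model without a sex term called 0 of the 8 members in CV minus KO (7 at an unadjusted p under 0.05). It called 77 of all tested genes, against 131 with the sex term.

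**Figure D4:**
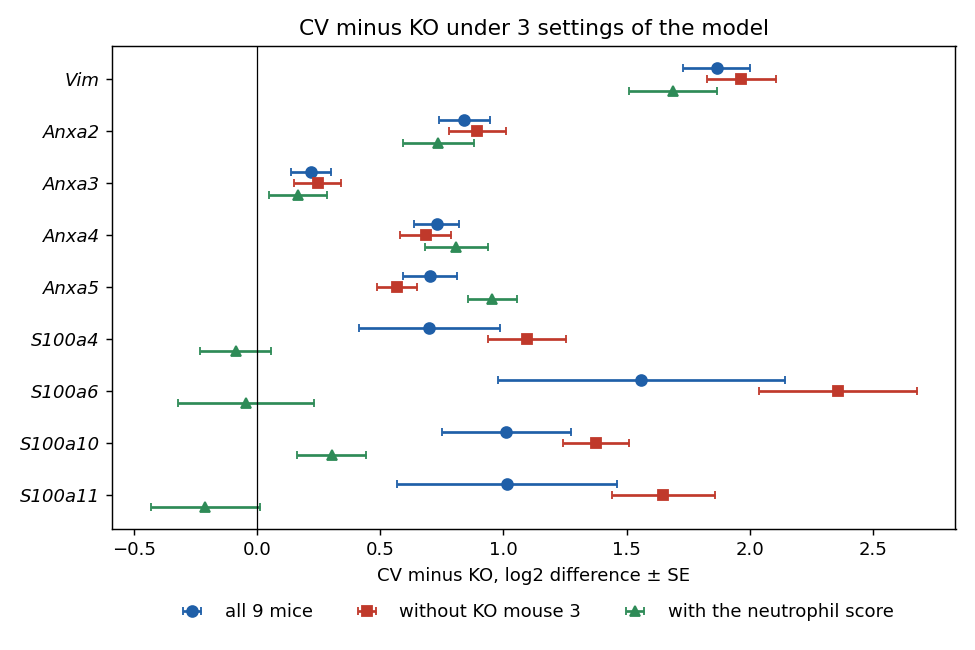
CV minus KO as a log2 difference with SE (x axis) for each gene (y axis), with all 9 mice, without KO mouse 3 and with the neutrophil score as a covariate. Vim, chosen on CV, is shown as a description. The annexins have positive values in all 3 settings, and S100a4, S100a6 and S100a11 lie at -0.09, -0.04 and -0.21 with the neutrophil score. That score itself differs between genotypes.

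The monocyte score was higher in KO mouse 3 and in CV than in the other mice, though its markers differed widely in size and 1 went the other way. Of 7 tested markers 6 were positive in CV minus KO, with a median of 0.28 and 0 called, and Hp (1.22 ± 0.43, limma adjusted p = 0.263) and Chil3 (2.18 ± 0.77, adjusted p = 0.268) had the smallest p. Chil3 had means of 5.07 in KO, 4.50 in R47H and 7.25 in CV, so it passed the filter value of 5.31 through CV. Ms4a4c stood at 0.61, Ccr2 at 0.28, Plac8 at 0.12, Ace at 0.11 and F13a1 at -0.37. The monocyte score was 0.44 in KO mouse 3, -0.47 and -0.40 in KO mice 1 and 2, -0.47 to -0.11 in R47H and 0.20 to 0.74 in CV. The neutrophil score too was higher in KO mouse 3 and in CV than in the other mice, and the scores were not told apart. The summed linear signal of 9 measured markers was 518 to 844 in KO, 507 to 563 in R47H and 655 to 970 in CV. Endothelium, pericytes, fibroblasts and astrocytes also make vimentin, and few of their markers passed the filter. Of 3 tested endothelial markers Flt1, also a gene of macrophages, was called higher (1.55 ± 0.17, limma adjusted p = 0.00413), while Pecam1 stood at -0.56 ± 0.16 (adjusted p = 0.17). The 3 tested pericyte and fibroblast markers were negative and 0 were called (Col1a2 -0.12 and Col1a1 -0.07), and the 4 astrocyte markers were negative and 0 were called (S100b -0.78 and Slc1a3 -0.25).

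The other marker lists were as follows in CV minus KO. Of 10 border-associated macrophage markers Ms4a7 was called higher (0.82 ± 0.15, limma adjusted p = 0.0423; 0 called without any one mouse other than KO mouse 3, and 2 without that one), 8 were negative, and Cd163 stood at -0.37 ± 0.08 (adjusted p = 0.0808). All 9 oligodendrocyte markers were negative in this comparison and 0 were called, with Mbp at -0.60 and Mag at -0.36; without KO mouse 3, 2 of them and 1 of the astrocyte markers were called. Of 4 dendritic cell markers 0 were called (Flt3 0.12 and Cd209a 0.09), the 1 tested T, NK and B cell marker, Cd3e, stood at -0.06, and 0 of 10 neuronal markers passed the filter. All 11 microglial markers were negative with 0 called and a median of -0.16.

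The members moved together in 2 ways over the mice. After genotype means were removed, Pearson correlations among S100a4, S100a6, S100a10 and S100a11 ran from 0.823 (S100a10 with S100a11) to 0.971 (S100a4 with S100a10). Anxa4 and Anxa5 correlated at 0.828 and Anxa2 and Anxa4 at 0.799, while Anxa5 and S100a11 stood at -0.780. Vim lay closest to S100a10 (0.559). These values describe 9 arrays and were not computed without KO mouse 3. That mouse was the highest KO mouse for these S100 genes and the lowest for Anxa4 and Anxa5.

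The genes whose log2 values were most like Vim over all 9 mice were Atp6v0d2, a proton pump subunit (Pearson r = 0.988), the chemokine receptor Cxcr4 (0.987), the cytoskeletal linker Gas2l3 (0.976), the plasminogen activator Plau (0.974) and the actin-binding Tagln2 (0.968). Their means in KO, R47H and CV rose in that order, from 9.32 to 9.84 and 10.63 for Cxcr4 and from 6.25 to 6.47 and 7.19 for Gas2l3. This order follows from their choice by likeness to Vim, itself chosen on CV, and is a description. For Atp6v0d2 the means were 4.50, 6.32 and 9.09, with that of KO under the filter value of 5.31. The genes most like S100a6 were Anxa1 (0.983), the annexin that pairs with S100a11, the haptoglobin gene Hp (0.980) and Mcemp1 (0.971). All 3 had their lowest mean in R47H, as did S100a6, by which they were picked. Those most like Anxa5 were the cytokine receptor subunit Csf2ra (0.963), the fatty acid carrier Fabp5 (0.962) and the cell cycle inhibitor Cdkn2d (0.957).

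Of the other annexins 4 of 8 were tested and 0 were called in any genotype comparison (limma), where 1.21%, 0.0834% and 0.797% of all tested genes were called in CV minus KO, R47H minus KO and R47H minus CV. Anxa1 stood at 1.31 ± 0.63 in CV minus KO (limma adjusted p = 0.425), and Anxa6 at 0.23 ± 0.08 in R47H minus KO (adjusted p = 0.671) and 0.24 ± 0.08 in R47H minus CV (adjusted p = 0.27). The median of the 4 in CV minus KO was -0.03. Of the other S100 genes 7 of 12 were tested and 0 were called in CV minus KO or R47H minus KO, with 4 of the 7 positive in the former. S100b, a gene of astrocytes and oligodendrocytes, was higher in R47H than in CV (2.12 ± 0.26, limma adjusted p = 0.0127). Its means were 7.86 in R47H, 5.74 in CV and 6.53 in KO, and it is itself 1 of the 4 tested markers in the astrocyte score. Leaving out any single R47H or CV mouse left 0 of the 7 called. R47H minus KO for S100b was 1.33 ± 0.26 (adjusted p = 0.144).

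Genes that work beside the members were counted in 3 lists. The lists were drawn up with earlier results of these data known, so their counts are a description. In the list of annexin A2 and S100a10 partners and the plasminogen system, 4 of 8 tested genes rose in CV minus KO, 0 fell and the median was 0.46, where 0.954% of all tested genes were called higher. The count was 1, 1 and 0 with the neutrophil, monocyte and astrocyte scores as covariates. With the 75th percentile filter (7.05) the count was 1, as Ahnak, Ahnak2 and Cd44 lay under that filter and were not tested. Cd44, the hyaluronan receptor, rose by 1.52 ± 0.19 and Plau, the urokinase that turns plasminogen into plasmin, by 0.97 ± 0.11 (limma adjusted p = 0.00617 and 0.00461). The giant scaffold proteins Ahnak, which the annexin A2 complex binds, and Ahnak2 rose by 0.91 ± 0.12 and 0.80 ± 0.08 (limma adjusted p = 0.00773 and 0.00286). In R47H minus CV 3 of the 8 fell, Ahnak2 by 0.84, Ahnak by 0.91 and Cd44 by 1.22 on the log2 scale (limma adjusted p = 0.00403, 0.0156 and 0.0307), and 1 was called without R47H mouse 1, R47H mouse 3 or any CV mouse, and 0 with any of the 3 scores. In R47H minus KO 0 were called, with Plau at 0.37 ± 0.11 (adjusted p = 0.581). Like Anxa2, Ahnak and Ahnak2 thus had R47H means near KO: for Ahnak they were 5.69 in both, against 6.60 in CV.

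Among 8 tested filament, lamin and plakin genes 1 rose in CV minus KO, Lmna, which encodes nuclear lamins A and C (0.75 ± 0.14, limma adjusted p = 0.0491), and 0 fell. That call was lost when KO mouse 2, KO mouse 3, R47H mouse 1 or any CV mouse was left out, and with each of the 3 scores (0 called). In R47H minus CV Lmna stood at -0.69 ± 0.14 (adjusted p = 0.0874), and in R47H minus KO the smallest p was that of Krt8 (-0.15 ± 0.08, adjusted p = 0.907). Among 22 tested cortical actin and myosin genes 2 rose in CV minus KO and 0 fell: the actin-capping Capg (1.05 ± 0.11, limma adjusted p = 0.00402) and Tagln2 (0.52 ± 0.08, limma adjusted p = 0.0215). Without KO mouse 2 or any CV mouse 1 of these 2 genes was called, and with the neutrophil, monocyte and astrocyte scores 0, 0 and 1 of the list. Capg stood at 0.62 ± 0.11 in R47H minus KO (adjusted p = 0.133) and Tagln2 at -0.33 ± 0.08 in R47H minus CV (adjusted p = 0.151).

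**Figure D5:**
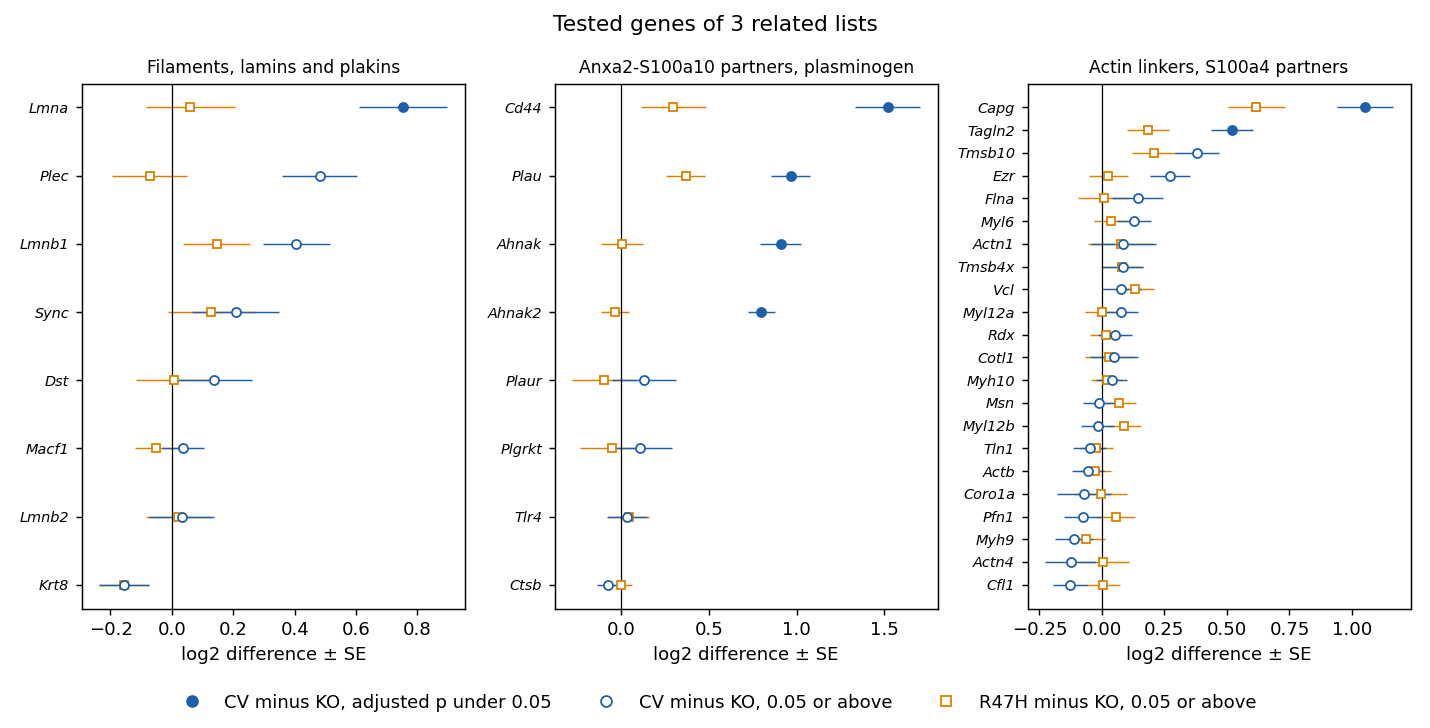
Log2 difference with SE (x axis) in CV minus KO (circles, filled where the limma adjusted p is under 0.05) and R47H minus KO (squares) for the tested genes (y axis) of the 3 related lists. Cd44, Plau, Ahnak, Ahnak2, Lmna, Capg and Tagln2 are filled, and no square passes the test.

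Position on the chromosome was examined through the order of protein-coding genes in RefSeq (GRCm38.p6). S100a4 and S100a6 are separated by S100a5 alone in the S100 cluster of chromosome 3, and S100a10 and S100a11 adjoin each other further along. S100a5 and S100a7a, which flank S100a6, and S100a2, which flanks S100a4, lay under the filter. Vim on chromosome 2 adjoins St8sia6, a sialyltransferase gene, chosen here after its value was seen. St8sia6 had means of 8.54 ± 0.20 in CV, 7.25 ± 0.43 in R47H and 6.56 ± 0.93 in KO (SD, n = 3), with CV minus KO of 1.98 ± 0.25 (limma adjusted p = 0.00693), R47H minus KO of 0.69 (adjusted p = 0.73) and R47H minus CV of -1.28 (adjusted p = 0.0689). Trdmt1, on the other side of Vim, stood at 0.18 ± 0.13 in CV minus KO (adjusted p = 0.618). Of the 15 neighbours that are not members, 7 were tested and St8sia6 was the one called in CV minus KO.

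Sex, which the choice of members did not use, gave 0 calls among the 9 (limma, 3 females against 6 males, 0.0648% of tested genes called). At an unadjusted p under 0.05 there were 3, Anxa2, Anxa4 and Anxa5, against 11% of tested genes, and 5 of the 9 differences were positive (54% of tested genes). Anxa4 was 0.42 ± 0.08 higher in females (limma adjusted p = 0.177), Anxa2 0.34 ± 0.09 (adjusted p = 0.249) and Anxa5 0.32 ± 0.10 (adjusted p = 0.297). In each genotype the female was the highest of its 3 mice for all 3 of these annexins. As the female was mouse 1 in every group, sex and mouse number cannot be told apart here. The female was also the mouse with the lowest neutrophil score in each genotype, and with that score as a covariate the female minus male difference was 0.37 ± 0.10 for Anxa4, 0.40 ± 0.11 for Anxa2 and 0.16 ± 0.08 for Anxa5.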

How the data were processed

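Members and gene lists were chosen with earlier results of these data known. The authors deposited 1 log2 value per probe set and array (35556 probe sets, 1.31 to 13.9); scale was read from the values, and background correction, normalization and summarization are not named in the labels used. Probe sets came from the platform annotation, which named 1 gene for 21789, several for 1621 and none for 12146. The highest-mean single-symbol probe set stood for each gene. Cross-hybridisation was not checked. limma 3.58.1 in R 4.3.3 (lmFit, eBayes; two-sided) fitted genotype and sex over 9 arrays, with 5 residual and 3.73 prior degrees of freedom and a median residual SD of 0.117. The threshold was a p of 0.05 after Benjamini-Hochberg adjustment over 10795 genes within each comparison. Array number limits precision: 3 mice against 3 cannot go below an exact permutation p of 0.1. The model was tested on simulated data. Named list genes were those called, at most 4 per list and comparison, or the smallest p where 0 were called; for other cell types, the 2 smallest p in CV minus KO; and the genes most correlated with Vim, S100a6 and Anxa5. The 5 related and 11 marker lists were counted in the same fit. Settings changed singly were the sex term, mouse number, arrays fitted, filter (50th percentile of probe set means; none; 75th), probe sets per gene, normalization, variance model, array weights, marker scores as covariates and each mouse left out. Mouse numbers did not meet the rule for pairing: deviations of same-numbered mice correlated at 0.32 to 0.36 for mouse 1, -0.04 to 0.20 for mouse 2 and 0.15 to 0.21 for mouse 3. Promoter sequences are from RefSeq.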

Additional observations from a re-analysis of the deposited data

How the results depend on the processing

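Of 751 recomputed log2 differences of members, without those of Vim in comparisons with CV, 685 kept their direction and side of the threshold, 18 lost a call, 10 gained one and 38 changed sign. With the replicate block (mouse number in place of sex) 136, 11 and 83 genes were called in CV minus KO, R47H minus KO and R47H minus CV, against 131, 9 and 86 without it, and 3, 0 and 1 members, so no member call changed; the pairing itself was not borne out. The genes called in CV minus KO were 77 without sex, 54 with the compared genotypes alone, 78 with every probe set tested, and 22, 21 and 16 with the neutrophil, monocyte and astrocyte scores, with called members at 0 without sex and at 1, 1 and 0 with the scores. The genes called in R47H minus KO were 3 without sex, 1 with the compared genotypes alone, 3 with every probe set, 15 with trend and robust options, and 16, 14 and 0 with the scores (the 0 with 601 at an unadjusted p under 0.05). The genes called in R47H minus CV were 25 with every probe set, 48 without a filter, 9 with the 75th percentile filter, and 6, 2 and 0 with the scores (505 unadjusted), with called members at 4 with the compared genotypes alone and at 0 with the 75th percentile filter, where Anxa2 was not tested, and with each score. The genes called in female minus male, 7 with the chosen settings, were 15 with array weights, 4 with every probe set, 3 with the 75th percentile filter, and 3, 3 and 4 with the scores. Over single removals the genes called ran from 59 to 172 in CV minus KO, 0 to 7 in R47H minus KO (the 0 without R47H mouse 3, with 534 unadjusted), 9 to 132 in R47H minus CV and 3 to 5 in female minus male, and members called from 2 to 7 in CV minus KO and 1 to 4 in R47H minus CV.

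With the neutrophil score, CV minus KO changed sign for S100a4 (-0.087), S100a6 (-0.044) and S100a11 (-0.21), R47H minus CV for S100a10 (0.12), and female minus male for Anxa3 (0.010), S100a4 (0.46), S100a6 (0.48) and S100a11 (0.22). With the monocyte score they were -0.18, -0.24 and -0.33 in CV minus KO, 0.0097 for S100a4 in R47H minus KO, 0.19, 0.053, 0.36 and 0.20 for S100a4, S100a6, S100a10 and S100a11 in R47H minus CV, and 0.52, 0.60 and 0.29 for S100a4, S100a6 and S100a11 in female minus male. With the astrocyte score, added after the data were seen, S100a11 stood at -0.0064 in CV minus KO, Anxa2, S100a4, S100a6 and S100a11 at 0.016, 0.84, 1.58 and 1.55 in R47H minus KO, S100a4, S100a6, S100a10 and S100a11 at 0.67, 1.15, 1.01 and 1.56 in R47H minus CV, and S100a4 at 0.20 in female minus male. With array medians centred Anxa3 was 0.012 in female minus male. Over single removals R47H minus KO ran from -0.57 to 0.16 for S100a4, -1.34 to 0.11 for S100a6 and -1.05 to 0.14 for S100a11, and female minus male from -0.084 to 0.045 for Anxa3, -0.20 to 0.16 for S100a4 and -0.074 to 0.26 for S100a10. These scores differ between genotypes, so a covariate also takes up genotype differences, and the cause of these changes was not tested.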
